A study of Homo sapiens with 16 samples.

Results

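The genes described here encode estrogen receptors, a related orphan receptor, and proteins that work beside steroid receptors. The 10 members were chosen by name (ESR1, ESR2, GPER1, ESRRA, NCOA1, NCOA2, NCOA3, NRIP1, PGRMC1 and PGRMC2) and were 10 of the 25370 genes in the count table. Of these 10, 9 passed the filter on low counts and could be tested, and ESR1 did not pass. RNA was sequenced from HMC3 cells, an established human line described as microglial, microglia being the resident immune cells of the brain. The study asked how gene expression in these cells responds to ketamine and to its hydroxynorketamine (HNK) metabolites, with and without estradiol (E2), the main circulating estrogen. Of these metabolites (2R,6R)-HNK was used, and so was its mirror image (2S,6S)-HNK.

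There were 8 groups of 2 libraries each. A first set received vehicle, E2 at 0.1 nM, or a single drug at 400 nM, which was ketamine or one of the HNKs. In the other groups the same 3 drugs, at 400 nM, were given together with 0.1 nM E2, and the name of such a group is the drug's name after E2+, as in E2+ketamine. Drug exposure lasted 24 h, in medium without serum or phenol red, after a period in hormone-stripped and then serum-free medium. The groups have limits as a model: all libraries come from 1 line, at passages of about 4 to 6 by the submitters' account, and what the vehicle contained is not named in the sources used here. The labels do not say whether the 2 libraries of a group came from separate cultures, so p-values measure the spread between libraries, which may be technical. Libraries held 55300614 to 81646165 counts assigned to genes. With 2 libraries against 2, an exact two-sided permutation test cannot give a p under 0.333, so calls rest on a model fitted across all genes.

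The labelled cell type was checked against marker genes. All 11 microglial markers examined had a mean under 1 CPM (counts scaled for library size) over the 16 libraries, and their summed level was 1.04 to 2.2 CPM per library. CSF1R, the receptor for the growth factor microglia depend on, was the most abundant of the 11 at 0.728 CPM, and C1QA was at 0 in all 16 libraries. Some markers of fibroblasts or pericytes were abundant. Their 9 genes summed to 5790 to 8860 CPM per library, led by COL1A1 at a mean of 4550 CPM, while 3 of the 9 had a mean under 1 CPM. This sum was 6150 and 6160 CPM in the vehicle libraries, 8590 and 8860 CPM with E2+ketamine, and 6110 and 5790 CPM with E2+(2S,6S)-HNK. The 4 astrocyte markers summed to 5.88 to 11 CPM, with ALDH1L1 the most abundant at 5.04 CPM and AQP4 at 0 throughout. The 5 neuronal markers summed to 75.5 to 143 CPM, almost entirely TUBB3 at 106 CPM, and the 4 epithelial markers to 390 to 784 CPM, led by KRT18 at 514 CPM. On the deposited counts these sums moved with treatment as well. The neuronal sum was 109 and 108 CPM with vehicle, 142 and 143 CPM with E2+ketamine, and 80.2 and 75.5 CPM with E2+(2S,6S)-HNK. The epithelial sum was 564 and 552 CPM, 774 and 784 CPM, and 397 and 390 CPM in the same groups. The astrocyte sum was 7.21 and 6.56 CPM with vehicle, 5.88 and 6.34 CPM with E2, and 9.43 and 10.4 CPM with (2S,6S)-HNK. It was 9.43 and 9.58 CPM with E2+(2S,6S)-HNK, and 11 and 10.4 CPM with E2+(2R,6R)-HNK. The sums were not corrected for base composition. For the 6 fibroblast or pericyte markers tested, median log2 fold changes from vehicle are given before and after the correction described below. They were 0.37 and 0.01 with E2, 0.31 and 0.02 with ketamine, 0.41 and 0.09 with (2R,6R)-HNK, and 0.32 and -0.02 with (2S,6S)-HNK. In the other groups they were 0.64 and 0.24 with E2+ketamine, 0.43 and 0.04 with E2+(2R,6R)-HNK, and 0.09 and -0.07 with E2+(2S,6S)-HNK. The part of these shifts in the changes below was not tested. The cells are therefore called HMC3 cells here, and no microglial identity is assumed.

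Estrogens act through nuclear receptors that bind DNA as ligand-activated transcription factors, and through receptors at membranes that start faster signals. A nuclear receptor holding its ligand recruits coactivators of the p160 family, which bring in chromatin-modifying enzymes, while corepressors such as NRIP1 compete for the same surface. In microglia, estrogens are best known for damping inflammatory gene expression. The receptors were at very different levels in these libraries. Per kilobase of annotated exon, mean levels over the 16 libraries ran from 0.000338 CPM for ESR1, 0.0361 for ESR2 and 0.36 for GPER1 to 14.8 for ESRRA. The coregulators lay between 2.2 CPM per kilobase for NCOA1 and 8.02 for NCOA3, with NCOA2 at 2.76 and NRIP1 at 6.54. PGRMC2 at 20.5 and PGRMC1 at 47.9 CPM per kilobase were the most abundant of the 10. Exon lengths for this scale come from GENCODE gene models on GRCh37, not from the UCSC models on which the counts were made.

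Base composition moved with every comparison against vehicle and is given beside the results. Across 15355 genes, the log2 fold change from vehicle rose with the G+C content of a gene's exons, with its highest Spearman correlation, 0.775, in E2+ketamine and its lowest, 0.445, in E2+(2S,6S)-HNK. This correlation describes the libraries, since genes do not vary independently of each other. Whether it arose in the cells or in making the libraries cannot be told apart. The median gene tested had 49.3% G+C in its exons, with the middle of the distribution from 42.6% to 57.4%. NRIP1 lay below that middle range at 38.8%, and ESRRA at 64.61% and GPER1 at 61.16% lay above it. The other members had 42.67% (NCOA3) to 46.63% (ESR2). Results are therefore given from the deposited counts and, for the calls and the main fold changes, again after a loess correction of each library for exon G+C content and length. After correction the same correlations were between -0.0193 and 0.0735.

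**Figure D1:**
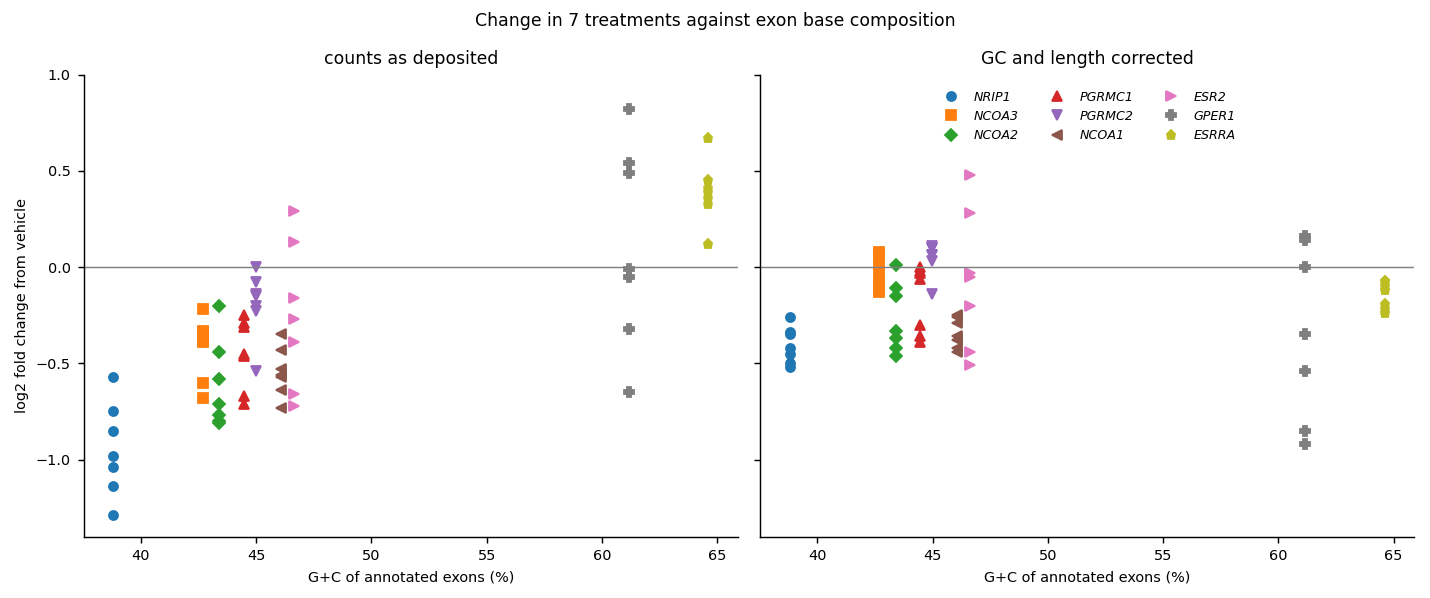
Log2 fold change from vehicle (vertical axis) of the 9 tested genes in the 7 treatments against the G+C content of their exons (horizontal axis, percent), from the deposited counts on the left and after the correction on the right; each point is 1 treatment. ESRRA, at 64.61% G+C, lies between 0.12 and 0.67 on the left and between -0.24 and -0.07 on the right, and NRIP1, at 38.8%, lies between -1.29 and -0.57 on the left and between -0.52 and -0.26 on the right.

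A gene was called changed when its adjusted p was under 0.05 in the quasi-likelihood test of edgeR, adjusted over all 16004 tested genes by the method of Benjamini and Hochberg. The 7 comparisons with vehicle share the same 2 vehicle libraries, so their results are not independent. With E2, 1 member of 9 was called higher and 6 lower, where 62.5% of all genes were called (29.9% higher, 32.7% lower). With ketamine it was again 1 higher and 6 lower, against 59.3% of all genes (26.8% higher, 32.5% lower). The single member called higher in both was ESRRA. The same count, 1 higher and 6 lower, was found with (2R,6R)-HNK, where 66.6% of genes were called (31.7% higher, 34.9% lower). It was found with (2S,6S)-HNK too, where 67.9% of genes were called (32.1% higher, 35.8% lower). In both, ESRRA was the gene called higher.

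With E2+ketamine, 2 members were called higher, ESRRA and GPER1, and 6 lower, against 71.7% of all genes (34.3% higher, 37.4% lower). With E2+(2R,6R)-HNK the count was 1 higher and 6 lower against 69.7% (33.4% higher, 36.3% lower). With E2+(2S,6S)-HNK it was 1 higher and 6 lower against 59.7% (24% higher, 35.7% lower). In this last group PGRMC2 was not called, and GPER1 was called lower. Most genes were called in each of the 7 comparisons, so a call alone does not set a member apart. Over the 7 comparisons, 50 of 63 tests of a member were called (8 higher, 42 lower), against 65.3% of all tests.

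After correction for G+C content and length, fewer members were called with the single compounds. With E2, 2 of 9 were called against 37.5% of all genes, with ketamine 3 of 9 against 48.5%, and with (2R,6R)-HNK 5 of 9 against 44.9%. With (2S,6S)-HNK 6 of 9 were called against 56.2% of all genes. With E2+ketamine 4 of 9 were called against 51.8%, with E2+(2R,6R)-HNK 7 of 9 against 59%, and with E2+(2S,6S)-HNK 7 of 9 against 56.1%. Over all 7, 34 of 63 tests were called (3 higher, 31 lower), against 50.6% of all tests. The corrected share of all genes in each direction is not given, so this split has no background beside it. NRIP1 and NCOA1 each gave 7 of the lower calls.

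ESR1 encodes estrogen receptor alpha, the classical nuclear estrogen receptor. The gene (ENSG00000091831) lies on the plus strand at chr6:151977826-152450754 of GRCh37. A total of 4 ESR1 counts was found in the 16 libraries, 2 in replicate 2 of (2R,6R)-HNK (0.035 CPM) and 2 in replicate 1 of E2+ketamine (0.0338 CPM), and 0 in the other 14. Pooled over all libraries this is 0.00374 CPM, with an exact 95% Poisson interval of 0.00102 to 0.00958. Small counts in the table were more often even than odd, and if both mates of a pair were counted these are 2 pairs, with an interval of 0.000453 to 0.0135 CPM. For the 14 libraries with 0 ESR1 counts the upper limit of the same kind of interval was 0.0431 to 0.0673 CPM, and it would be higher if both mates were counted. Intervals and limits of this kind cover counting error only. With so few counts no fold change is given for ESR1.

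ESR2 encodes estrogen receptor beta, the other nuclear estrogen receptor. It lies on the minus strand at chr14:64550950-64804830 (ENSG00000140009), and 523 bases of its exons overlap a long noncoding RNA on the same strand that is not in the count table. Every library held ESR2 counts, from 12 (E2+ketamine, replicate 2) to 46 (E2+(2S,6S)-HNK, replicate 1), with levels of 0.205 to 0.657 CPM. The E2+ketamine libraries had 0.54 and 0.205 CPM. The libraries of (2R,6R)-HNK (0.324 and 0.262 CPM) and of E2+(2R,6R)-HNK (0.228 and 0.391 CPM) lay below those of vehicle (0.441 and 0.537 CPM), E2 (0.593 and 0.475 CPM) and (2S,6S)-HNK (0.657 and 0.543 CPM). Ketamine (0.327 and 0.482 CPM) and E2+(2S,6S)-HNK (0.564 and 0.295 CPM) overlapped vehicle. ESR2 was called in 0 of the 19 comparisons made here by edgeR. The comparison closest to a call was (2R,6R)-HNK against (2S,6S)-HNK, where ESR2 had a log2 difference of -1.01 (SE 0.46, 95% interval -1.93 to -0.09, unadjusted p = 0.0296, edgeR adjusted p = 0.0653), or -0.91 after correction (edgeR adjusted p = 0.0932). Its adjusted p moved to 0.034 with a filter of 10 counts in every library, to 0.0493 with no filter and to 0.05 with these groups fitted alone, and was 0.119 in DESeq2. Against vehicle, log2 fold changes were -0.72 to 0.29 with standard errors of 0.43 to 0.46, so changes of this size could not be told from 0.

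GPER1 encodes a G protein-coupled receptor that binds estrogen at membranes. It lies on the plus strand at chr7:1121844-1133451 (ENSG00000164850). The vehicle libraries had 0.834 and 1.16 CPM, from 51 and 69 counts, and the E2 libraries 1.35 and 1.56 CPM. Ketamine gave 0.946 and 1.04 CPM, (2R,6R)-HNK 1.27 and 1.54 CPM, and (2S,6S)-HNK 1.17 and 0.763 CPM. With E2 added, E2+ketamine gave 1.81 and 1.71 CPM, E2+(2R,6R)-HNK 0.778 and 0.81 CPM, and E2+(2S,6S)-HNK 0.699 and 0.56 CPM. The E2+ketamine libraries were above all 14 others and the E2+(2S,6S)-HNK libraries below them, while vehicle, ketamine and (2S,6S)-HNK overlapped, as did E2 and (2R,6R)-HNK.

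Against vehicle, GPER1 was called higher with E2+ketamine (log2 fold change 0.82, SE 0.25, edgeR adjusted p = 0.0032) and lower with E2+(2S,6S)-HNK (-0.65, SE 0.28, edgeR adjusted p = 0.0402). These calls rest on few counts. Without vehicle replicate 1 the first was 0.60 (edgeR adjusted p = 0.0787), and without vehicle replicate 2 the second was -0.39 (edgeR adjusted p = 0.357). Leaving out replicate 2 of E2+(2S,6S)-HNK gave -0.51 (edgeR adjusted p = 0.199), and DESeq2 gave an adjusted p of 0.0832 for that comparison with all libraries. It was also lost with upper-quartile normalization (-0.54, edgeR adjusted p = 0.0885) and with these groups fitted alone (-0.58, edgeR adjusted p = 0.102). With E2 alone the value was 0.54 (SE 0.26, edgeR adjusted p = 0.0595), and it depended on the vehicle libraries: GPER1 was at 0.32 without vehicle replicate 1 (edgeR adjusted p = 0.393) and at 0.80 without vehicle replicate 2 (edgeR adjusted p = 0.0328). It was also called with upper-quartile normalization (0.61, edgeR adjusted p = 0.0346) and with a filter of 10 counts in every library (edgeR adjusted p = 0.0485). With (2R,6R)-HNK the GPER1 value was 0.49 (edgeR adjusted p = 0.0868), and it was called with upper-quartile normalization (0.57, edgeR adjusted p = 0.046) and without vehicle replicate 2 (0.74, edgeR adjusted p = 0.0441). After correction for G+C content and length the values were 0.14 with E2 (edgeR adjusted p = 0.729), 0.00 with (2R,6R)-HNK (edgeR adjusted p = 0.998) and 0.16 with E2+ketamine (edgeR adjusted p = 0.633). The corrected value for E2+(2S,6S)-HNK was -0.92 (edgeR adjusted p = 0.00383), and for E2+(2R,6R)-HNK it was -0.85 (edgeR adjusted p = 0.00513), where the deposited counts had given -0.32 (edgeR adjusted p = 0.284).

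ESRRA encodes estrogen-related receptor alpha, an orphan nuclear receptor that resembles the estrogen receptors in sequence, does not bind estradiol, and controls genes of mitochondrial energy metabolism. It lies on the plus strand at chr11:64072969-64084215 (ENSG00000173153), and 284 bases of its exons overlap TRMT112 on the opposite strand, which is also in the count table. Whether counting used the strand is not stated, so reads from this overlap cannot be assigned with certainty. Its promoter and its coding sequence are rich in G and C, and are printed because exon G+C content is given beside the results. The promoter line gives the 250 bases upstream of the only listed start (RefSeq, GRCh38.p14, plus strand, chr11:64305274-64305523, 78.0% G+C), with capitals marking each GGGCGG or its reverse complement. The coding line gives the first 120 bases of the longest coding segment (GRCh37 with GENCODE models, plus strand, chr11:64074652-64074771, 63.3% G+C), with G and C in capitals.
ESRRA promoter: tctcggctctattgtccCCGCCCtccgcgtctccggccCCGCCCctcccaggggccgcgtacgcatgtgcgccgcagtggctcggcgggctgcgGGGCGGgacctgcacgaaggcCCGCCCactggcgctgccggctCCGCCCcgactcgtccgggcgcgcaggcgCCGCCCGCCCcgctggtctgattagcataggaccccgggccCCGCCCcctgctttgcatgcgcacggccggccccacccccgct
ESRRA coding stretch: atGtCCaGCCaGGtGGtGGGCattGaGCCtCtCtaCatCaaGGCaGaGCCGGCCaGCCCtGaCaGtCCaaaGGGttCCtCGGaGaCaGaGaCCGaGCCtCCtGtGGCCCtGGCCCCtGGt

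The ESRRA level was 30.2 and 28.3 CPM in the vehicle libraries and 38.6 and 39 CPM with E2. It was 39.1 and 34.6 CPM with ketamine, 38 and 38.8 CPM with (2R,6R)-HNK, and 39.5 and 40.1 CPM with (2S,6S)-HNK. With E2+ketamine it was 46.4 and 46.7 CPM, with E2+(2R,6R)-HNK 37.9 and 37.4 CPM, and with E2+(2S,6S)-HNK 32.3 and 31.5 CPM. The 2 vehicle libraries were the lowest of the 16, E2+(2S,6S)-HNK came next, and E2+ketamine was highest. Between these, the ketamine replicates spanned the range of E2, (2R,6R)-HNK and E2+(2R,6R)-HNK. The E2 and (2R,6R)-HNK libraries overlapped, and those of E2+(2R,6R)-HNK lay just below both. The (2S,6S)-HNK libraries lay just above all of these.

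ESRRA was the only member called higher in 7 of 7 comparisons with vehicle on the deposited counts, and none of these 7 held after correction for base composition. The largest rise was with E2+ketamine, a log2 fold change of 0.67 (SE 0.05, edgeR adjusted p = 1.52e-16), followed by 0.45 with (2S,6S)-HNK and 0.41 with E2. Values with (2R,6R)-HNK, E2+(2R,6R)-HNK and ketamine were 0.39, 0.36 and 0.33. The smallest was 0.12 with E2+(2S,6S)-HNK (SE 0.05, edgeR adjusted p = 0.0375). That last call was lost without vehicle replicate 2 (0.08, edgeR adjusted p = 0.337) or without replicate 1 (0.11, edgeR adjusted p = 0.175) or replicate 2 (0.14, edgeR adjusted p = 0.0515) of its own group. After correction all 7 values were negative, from -0.24 to -0.07. They were called lower with (2R,6R)-HNK (-0.19), (2S,6S)-HNK (-0.12), E2+(2R,6R)-HNK (-0.24) and E2+(2S,6S)-HNK (-0.22), and were not called with E2 (-0.07), ketamine (-0.07) or E2+ketamine (-0.10). The direction of the ESRRA change thus depended on this correction in each treatment.

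NRIP1, also called RIP140, is a corepressor that binds ligand-bound estrogen receptor and other nuclear receptors. It lies on the minus strand at chr21:16333556-16438257 (ENSG00000180530). Its exons overlap 2 long noncoding RNAs that are not in the count table, by 87 bases on the same strand and 562 bases on the opposite strand. Unlike ESRRA it is encoded in DNA with little G and C, in a coding segment of 3474 bases with 42.1% G+C where the ESRRA segment of 325 bases has 65.2%. Its promoter, 1 of 3 listed starts, is shown because it holds GGTCA, the core letters that estrogen receptors recognise (RefSeq, GRCh38.p14, minus strand, chr21:15065001-15065250, 68.4% G+C). Capitals mark GGTCA and GGGCGG on either strand. The coding stretch is the first 120 bases of its coding segment (GRCh37 with GENCODE models, minus strand, chr21:16340394-16340513, 45.0% G+C), with G and C in capitals for comparison with ESRRA.
NRIP1 promoter: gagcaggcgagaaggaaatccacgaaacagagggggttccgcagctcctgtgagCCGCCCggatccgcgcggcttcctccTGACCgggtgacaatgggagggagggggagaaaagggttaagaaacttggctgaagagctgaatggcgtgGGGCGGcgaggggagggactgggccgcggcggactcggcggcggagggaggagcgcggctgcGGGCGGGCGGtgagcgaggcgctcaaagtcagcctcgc
NRIP1 coding stretch: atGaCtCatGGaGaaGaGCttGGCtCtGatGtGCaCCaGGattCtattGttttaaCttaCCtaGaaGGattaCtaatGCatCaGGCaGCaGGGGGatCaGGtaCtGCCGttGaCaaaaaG

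The 250 bases upstream of 23 RefSeq starts, from 9 of the 10 members, were searched on both strands. NCOA2 was left out of this search. The full palindromic estrogen response element, GGTCA and TGACC with 3 bases between them, was in 0 of these 23 windows and in 0.0399% of all 35116 windows of the table. The element of estrogen-related receptors, TNAAGGTCA, was in 0 of 23 and in 0.854% of all windows. GGTCA, which is part of both, was in 5 of 23 windows, from 4 genes, and in 32.6% of all. GGGCGG was in 14 of 23, from 8 of the 9 genes, and in 42.6% of all. A match is a description, not a site or a cause, and its absence says only that these letters are not in this window.

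The NRIP1 level was 87.7 and 85.6 CPM in the vehicle libraries and 47.3 and 48.9 CPM with E2. It was 52.4 and 50.7 CPM with ketamine, 39.5 and 39.2 CPM with (2R,6R)-HNK, and 44.1 and 43.6 CPM with (2S,6S)-HNK. With E2+ketamine it was 35.4 and 35.6 CPM, with E2+(2R,6R)-HNK 42.1 and 42.1 CPM, and with E2+(2S,6S)-HNK 56.8 and 60 CPM. Both vehicle libraries were far above the other 14. The order from highest to lowest was vehicle, E2+(2S,6S)-HNK, ketamine, E2, (2S,6S)-HNK, E2+(2R,6R)-HNK, (2R,6R)-HNK and E2+ketamine, and no 2 neighbours in this order overlapped.

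NRIP1 was lower than vehicle in 7 of 7 comparisons, before and after correction for base composition. With E2+ketamine the log2 fold change was -1.29 (SE 0.04, edgeR adjusted p = 9.86e-31), or 0.41 times the vehicle level. It was -1.14 with (2R,6R)-HNK, -1.04 with E2+(2R,6R)-HNK, -0.98 with (2S,6S)-HNK, -0.85 with E2, -0.75 with ketamine and -0.57 with E2+(2S,6S)-HNK, each with an SE of 0.04. On the deposited counts these were the largest fold changes among the members in each treatment apart from E2+(2S,6S)-HNK, where NCOA2 (-0.58) and GPER1 (-0.65) reached as far. After correction this ranking did not hold throughout. With (2S,6S)-HNK, GPER1 was at -0.54, ESR2 at 0.48 and NCOA1 at -0.44, beside -0.42 for NRIP1. With E2+(2R,6R)-HNK, GPER1 was at -0.85, ESR2 at -0.51 and NCOA2 at -0.46, beside -0.45 for NRIP1. With E2+(2S,6S)-HNK, GPER1 (-0.92), NCOA1 (-0.42), NCOA2 (-0.37) and PGRMC1 (-0.30) all passed NRIP1 (-0.26). With ketamine, GPER1 and NRIP1 were both at -0.35. Correction made each NRIP1 value smaller without ending a call. Corrected values were -0.52 with E2+ketamine (edgeR adjusted p = 3.22e-18), -0.50 with (2R,6R)-HNK, -0.45 with E2+(2R,6R)-HNK, -0.42 with (2S,6S)-HNK, -0.35 with ketamine, -0.34 with E2 and -0.26 with E2+(2S,6S)-HNK. In bulk RNA, less RNA of a gene per cell and fewer cells that express it cannot be told apart.

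**Figure D2:**
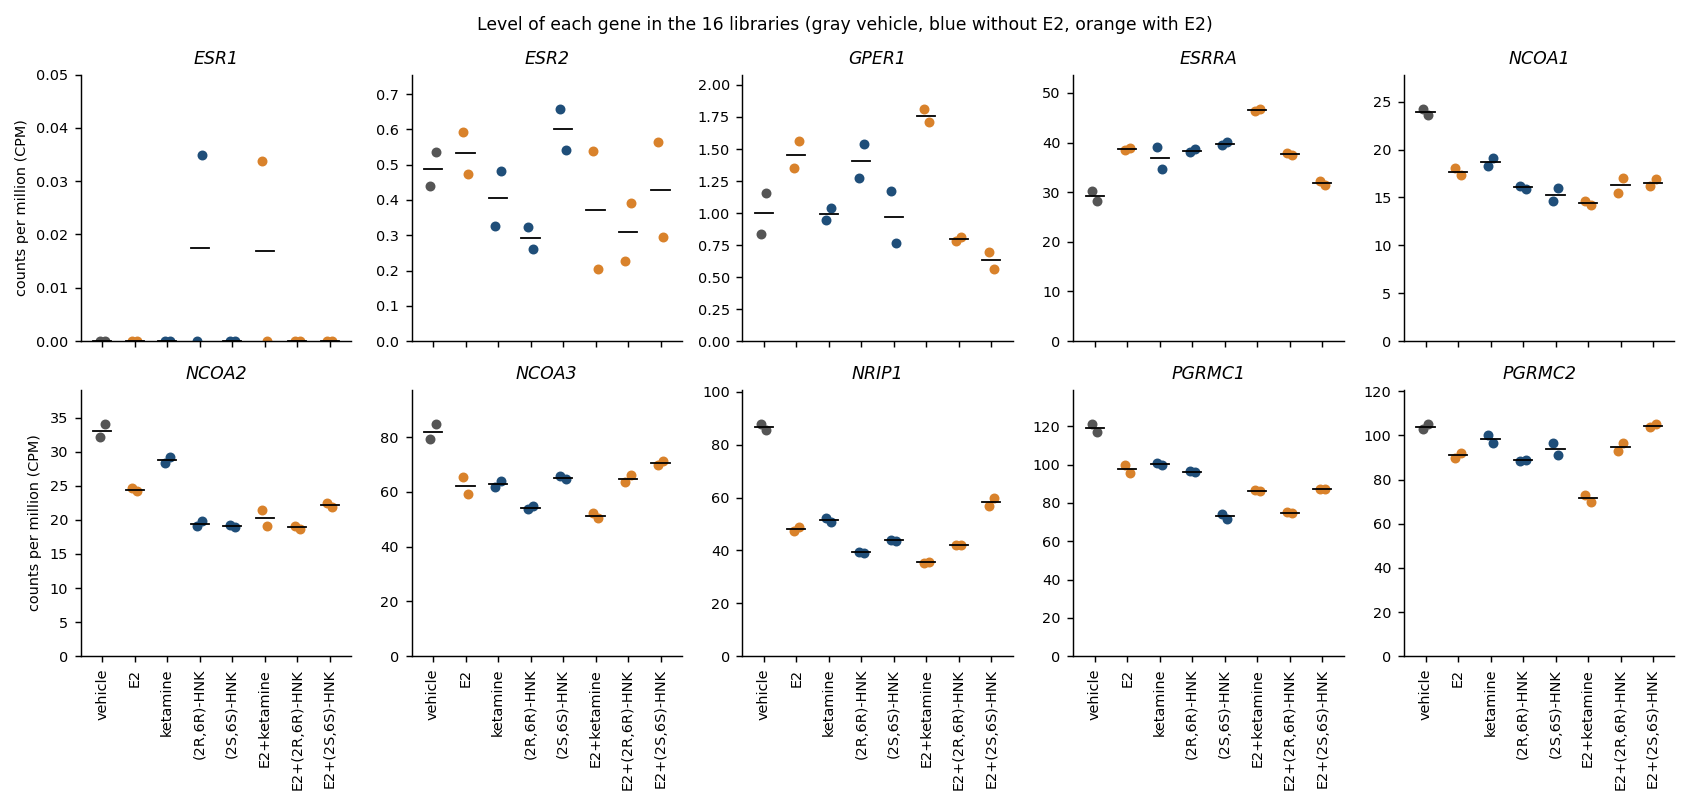
Level of each of the 10 genes (vertical axis, CPM, a separate scale for each gene) in each library of the 8 groups (horizontal axis); points are libraries and black bars are group means. For NRIP1 the vehicle libraries lie at 87.7 and 85.6 CPM and the other 14 between 35.4 and 60 CPM, while for ESR1 14 libraries lie at 0.

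NCOA1, NCOA2 and NCOA3 encode the p160 coactivators, also known as steroid receptor coactivators, which bind ligand-bound nuclear receptors and recruit histone acetyltransferases. NCOA1 (ENSG00000084676) lies on the plus strand at chr2:24714123-24993571 and NCOA3 (ENSG00000124151) on the plus strand at chr20:46130631-46285621. NCOA1 was at 24.2 and 23.6 CPM in the vehicle libraries and at 14.2 to 19.1 CPM in the other 14. NCOA2 was at 32.2 and 34 CPM with vehicle and at 18.7 to 29.2 CPM in the others. NCOA3 was at 79.3 and 84.6 CPM with vehicle and at 50.5 to 71.1 CPM in the others. In all 3 genes the vehicle libraries were above the remaining 14 without overlap.

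Each of the 3 coactivator genes was called lower than vehicle in 7 of 7 comparisons on the deposited counts. For NCOA1 the log2 fold changes ran from -0.73 with E2+ketamine (SE 0.07, edgeR adjusted p = 7.67e-14) to -0.35 with ketamine. All 7 NCOA1 calls held after correction, with values of -0.44 with (2S,6S)-HNK to -0.25 with E2. After ketamine, the NCOA1 groups in order of level were E2, E2+(2S,6S)-HNK, E2+(2R,6R)-HNK, (2R,6R)-HNK, (2S,6S)-HNK and E2+ketamine, and the range of E2+(2R,6R)-HNK overlapped those of both HNKs alone and of E2+(2S,6S)-HNK. For NCOA2 the values were -0.20 with ketamine and -0.44 with E2, but -0.77 with (2R,6R)-HNK, -0.80 with (2S,6S)-HNK and -0.81 with E2+(2R,6R)-HNK (SE 0.06, edgeR adjusted p = 2.57e-17). With E2+ketamine and E2+(2S,6S)-HNK they were -0.71 and -0.58. Corrected NCOA2 values were 0.01 with ketamine and -0.11 with E2, neither called, and -0.46 to -0.15 in the other 5, all called. The ketamine value also missed the threshold with upper-quartile normalization (-0.12, edgeR adjusted p = 0.0712).

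NCOA3 fell most with E2+ketamine (-0.68, SE 0.04, edgeR adjusted p = 9.32e-20) and (2R,6R)-HNK (-0.60). Its other values were -0.39 with E2, -0.38 with ketamine, -0.34 with E2+(2R,6R)-HNK, -0.33 with (2S,6S)-HNK and -0.22 with E2+(2S,6S)-HNK. Little of this was left after correction. Corrected NCOA3 was called lower with ketamine (-0.13, edgeR adjusted p = 0.00201) and (2R,6R)-HNK (-0.11, edgeR adjusted p = 0.0108). It was between -0.08 and 0.08 in the other 5, none of them called, and was above 0 with (2S,6S)-HNK (0.08), E2+(2R,6R)-HNK (0.06) and E2+(2S,6S)-HNK (0.01).

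PGRMC1 and PGRMC2 encode small heme-binding membrane proteins that are related to cytochrome b5 and are named for their link to progesterone responses. PGRMC1 (ENSG00000101856) lies on the plus strand at chrX:118370208-118378429, and PGRMC2 (ENSG00000164040) on the minus strand at chr4:129190392-129209984. PGRMC1 was at 121 and 117 CPM in the vehicle libraries, 100 and 95.7 CPM with E2, and 101 and 99.6 CPM with ketamine. It was at 96.8 and 95.9 CPM with (2R,6R)-HNK but 74.3 and 71.8 CPM with (2S,6S)-HNK. With E2+ketamine it was at 86.9 and 86.1 CPM, with E2+(2R,6R)-HNK at 75.3 and 74.7 CPM, and with E2+(2S,6S)-HNK at 87.4 and 87.1 CPM. The E2 libraries overlapped those of ketamine and of (2R,6R)-HNK, which did not overlap each other, and no library of another group reached the vehicle level.

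PGRMC1 was called lower than vehicle in 7 of 7 comparisons on the deposited counts. The largest falls were -0.71 with (2S,6S)-HNK (SE 0.03, edgeR adjusted p = 8.42e-24) and -0.67 with E2+(2R,6R)-HNK (SE 0.03, edgeR adjusted p = 2.7e-23). E2+ketamine gave -0.46, E2+(2S,6S)-HNK -0.45, (2R,6R)-HNK -0.31, E2 -0.29 and ketamine -0.25. After correction 3 of the 7 were called, -0.39 with (2S,6S)-HNK, -0.36 with E2+(2R,6R)-HNK and -0.30 with E2+(2S,6S)-HNK. The other 4 corrected values were between -0.06 and 0.00.

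PGRMC2 varied least of the tested members, from 70 to 105 CPM, and its vehicle libraries (103 and 105 CPM) overlapped those of E2+(2S,6S)-HNK (104 and 105 CPM). It was called lower with 6 of the 7 treatments, most with E2+ketamine (-0.54, SE 0.04, edgeR adjusted p = 5.25e-19), where the libraries had 73.1 and 70 CPM. With E2+(2S,6S)-HNK the log2 fold change was 0.00 with a 95% interval of -0.07 to 0.07. The values with (2R,6R)-HNK and E2 were -0.23 and -0.20, and those with (2S,6S)-HNK and E2+(2R,6R)-HNK were -0.15 and -0.14. With upper-quartile normalization these last values were -0.08 (edgeR adjusted p = 0.054) and -0.06 (edgeR adjusted p = 0.146), and E2+(2S,6S)-HNK was called higher (0.11, edgeR adjusted p = 0.00775). The small ketamine value (-0.08, edgeR adjusted p = 0.0352) was lost without vehicle replicate 1 (edgeR adjusted p = 0.0559), vehicle replicate 2 (0.175), E2 replicate 2 (0.0522) or ketamine replicate 2 (0.254), and was 0.00 with upper-quartile normalization. It was also lost with no filter (edgeR adjusted p = 0.0955), with a filter of 10 counts in every library (0.0651), with these groups fitted alone (0.105) and in DESeq2 (adjusted p = 0.23). After correction PGRMC2 was lower with E2+ketamine (-0.14, edgeR adjusted p = 0.00015) and slightly higher with (2S,6S)-HNK (0.10), E2+(2R,6R)-HNK (0.10) and E2+(2S,6S)-HNK (0.11). The corrected values with E2, ketamine and (2R,6R)-HNK were 0.03, 0.06 and 0.06 and were not called.

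**Figure D3:**
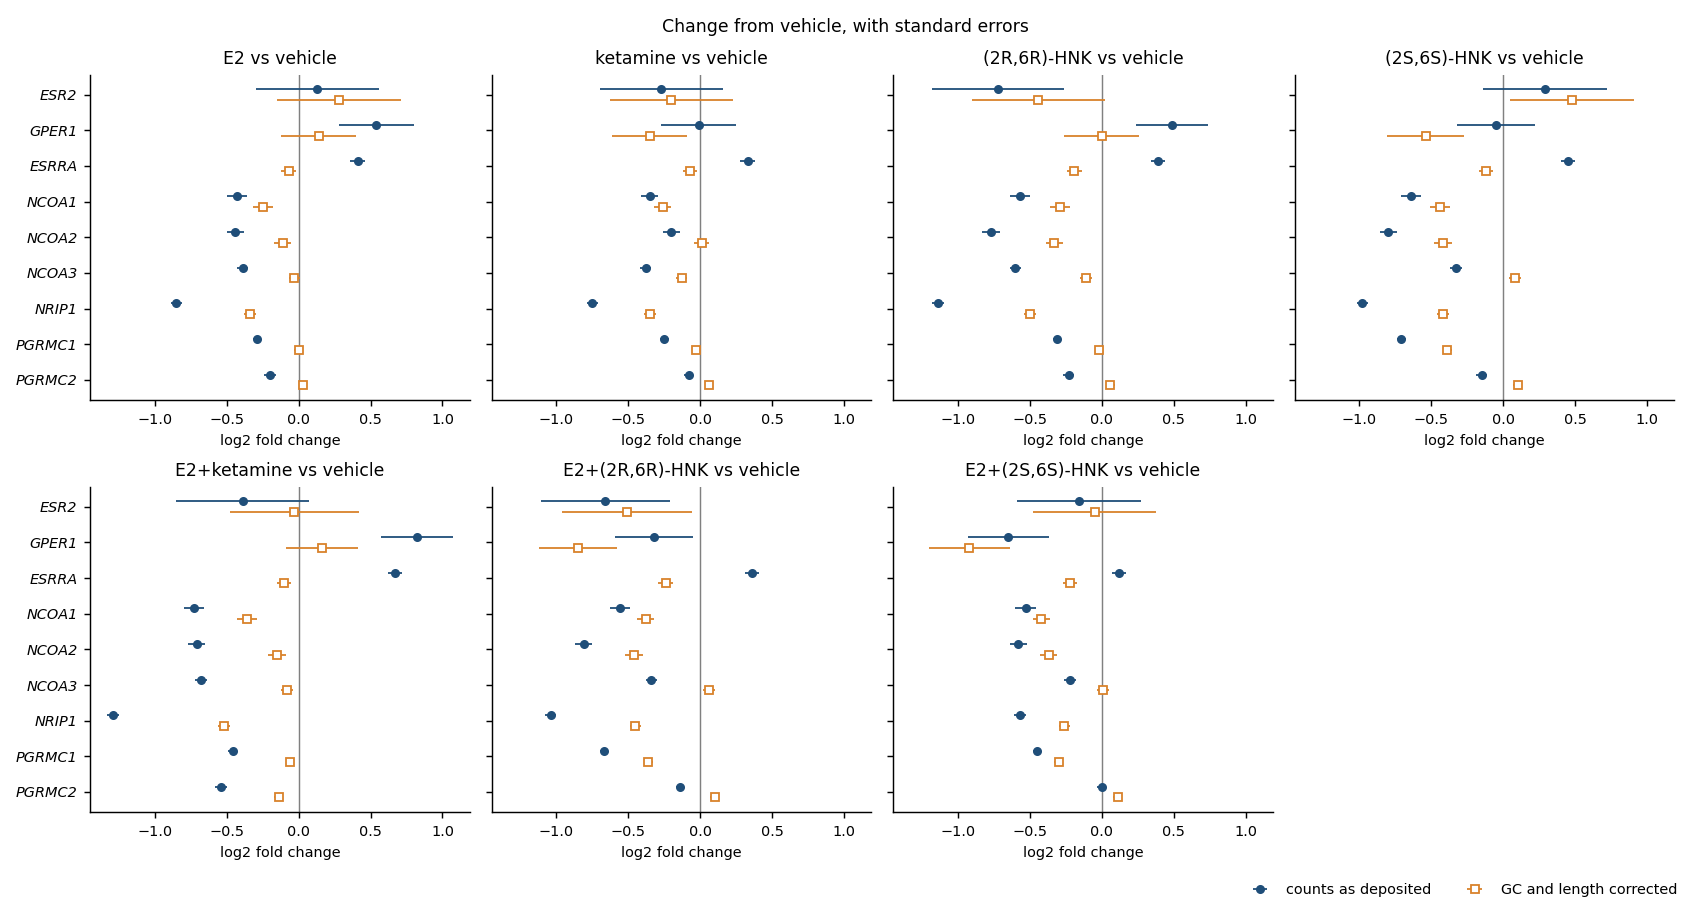
Log2 fold change from vehicle (horizontal axis) of the 9 tested genes (vertical axis) in each of the 7 treatments, from the deposited counts (filled) and after correction for G+C content and length (open); bars are standard errors. NRIP1 is left of 0 in all 7 panels in both (-1.29 to -0.57 and -0.52 to -0.26), whereas ESRRA is right of 0 from the deposited counts (0.12 to 0.67) and left of it after correction (-0.24 to -0.07).

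The drugs were compared with each other at the same dose and time, in 3 pairs without E2 and 3 pairs with E2. Without E2, NCOA2 was higher with ketamine than with either metabolite, and PGRMC1 was lower with (2S,6S)-HNK than with ketamine or (2R,6R)-HNK. In the presence of E2, GPER1 was more than 2 times higher with ketamine than with either metabolite. Over the 6 pairs, 31 of 54 tests of a member were called, against 51.3% of all tests, and 22 of 54 after correction, against 42.9%.

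Between ketamine and (2R,6R)-HNK, 5 of 9 members were called, against 45.4% of all genes, and 3 of 9 after correction, against 37.8%. NCOA2 was higher with ketamine by 0.57 on the log2 scale (SE 0.06, edgeR adjusted p = 1.37e-11), which was 0.34 after correction. NRIP1 was higher by 0.39, or 0.15 corrected, and both were called. NCOA1 (0.22), NCOA3 (0.21) and PGRMC2 (0.15) were higher on the deposited counts but were 0.03, -0.02 and 0.00 after correction, and NCOA1 also missed the threshold without ketamine replicate 2 (0.19, edgeR adjusted p = 0.0593). ESRRA was not called on the deposited counts (-0.06, 95% interval -0.16 to 0.04) and was 0.12 after correction (edgeR adjusted p = 0.0382), but without ketamine replicate 1 ESRRA was at -0.15 (edgeR adjusted p = 0.0385). PGRMC1 differed by 0.06 (95% interval -0.01 to 0.13), and GPER1 by -0.49 (95% interval -0.98 to -0.00, edgeR adjusted p = 0.0965).

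Between ketamine and (2S,6S)-HNK, 4 of 9 members were called, against 46.1% of all genes, and 4 of 9 after correction, against 40.8%. PGRMC1 was higher with ketamine by 0.46 (SE 0.03, edgeR adjusted p = 5.41e-16), and by 0.36 after correction. NCOA2 was higher by 0.60, or 0.44 corrected, and NCOA1 by 0.29, or 0.18 corrected. NRIP1 was higher by 0.23, and 0.07 after correction, where it was no longer called. NCOA3 differed by -0.05 (95% interval -0.13 to 0.04) on the deposited counts and by -0.21 after correction (edgeR adjusted p = 2.29e-06). The intervals of ESRRA (-0.21 to -0.01, edgeR adjusted p = 0.0654) and PGRMC2 (-0.00 to 0.14) were narrow, and that of GPER1 was wide (-0.48 to 0.57). Without ketamine replicate 1 ESRRA was called (-0.20, edgeR adjusted p = 0.00542), and without replicate 1 of (2S,6S)-HNK PGRMC2 was called (0.11, edgeR adjusted p = 0.028).

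For the mirror-image pair, 3 of 9 members were called, against 43.5% of all genes, and 2 of 9 after correction, against 45%. PGRMC1 was higher with (2R,6R)-HNK than with (2S,6S)-HNK by 0.40 (SE 0.03, 95% interval 0.33 to 0.47, edgeR adjusted p = 1.01e-13), and by 0.37 after correction. NCOA3 was lower with (2R,6R)-HNK by 0.26 on the log2 scale (-0.26, SE 0.04), and -0.20 after correction. NRIP1 was lower too (-0.16), but not after correction (-0.08, edgeR adjusted p = 0.144). For the other members the intervals of the difference were -0.15 to 0.05 for ESRRA, -0.07 to 0.21 for NCOA1, -0.10 to 0.15 for NCOA2, -0.15 to -0.01 for PGRMC2 (edgeR adjusted p = 0.0638) and 0.02 to 1.06 for GPER1 (edgeR adjusted p = 0.0882). Without replicate 1 of (2S,6S)-HNK the GPER1 difference was 0.87 (edgeR adjusted p = 0.031), and without replicate 2 the PGRMC2 difference was -0.12 (edgeR adjusted p = 0.0213). PGRMC2 was also called with a filter of 10 counts in every library (-0.08, edgeR adjusted p = 0.0437). ESR2, described above, had the widest interval of all.

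With E2 present, E2+ketamine against E2+(2R,6R)-HNK gave 7 of 9 members called, against 52% of all genes, and 6 of 9 after correction, against 49.8%. GPER1 was higher with E2+ketamine by 1.14 (SE 0.25, edgeR adjusted p = 0.000127), a fold of 2.21, and by 1.01 after correction. ESRRA was higher by 0.31 and PGRMC1 by 0.21, and both stayed higher after correction (0.14 and 0.30). PGRMC2 was lower by 0.40 on the log2 scale (-0.40), NCOA3 by 0.34 (-0.34) and NRIP1 by 0.24 (-0.24), which after correction were -0.24, -0.14 and -0.07, the last not called. NCOA1 (-0.17, edgeR adjusted p = 0.0331) was 0.03 after correction and missed the threshold without either E2+ketamine library or without E2+(2R,6R)-HNK replicate 2 (-0.10, edgeR adjusted p = 0.334), with these groups fitted alone (edgeR adjusted p = 0.0731) and in DESeq2 (adjusted p = 0.119). NCOA2 was 0.10 (95% interval -0.02 to 0.23) and 0.31 after correction (edgeR adjusted p = 1.01e-05).

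E2+ketamine against E2+(2S,6S)-HNK gave 6 of 9 members called, against 66.8% of all genes, and 6 of 9 after correction, against 55.2%. GPER1 was higher with E2+ketamine by 1.47 (SE 0.26, edgeR adjusted p = 2.18e-06), a fold of 2.76, and by 1.08 after correction. ESRRA was higher by 0.55, or 0.12 corrected. NRIP1 was lower (-0.72), as were PGRMC2 (-0.54), NCOA3 (-0.46) and NCOA1 (-0.20), and these were -0.26, -0.26, -0.09 and 0.06 after correction, the last 2 not called. The NCOA1 call was lost without replicate 2 of E2+ketamine or of E2+(2S,6S)-HNK, and in DESeq2 (adjusted p = 0.0593). PGRMC1 did not separate these groups on the deposited counts (-0.01, 95% interval -0.08 to 0.06), but was higher with E2+ketamine after correction (0.24, edgeR adjusted p = 6.75e-10), and so was NCOA2 (-0.13 before, 0.22 after). The direction for NCOA2 depended on the setting, since it was called lower with upper-quartile normalization (-0.17, edgeR adjusted p = 0.0117) and with a filter of 10 counts in every library (-0.13, edgeR adjusted p = 0.0497).

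The mirror-image pair in the presence of E2 gave 6 of 9 members called, against 54% of all genes, but 1 of 9 after correction, against 28.7%. That 1 was NRIP1, lower with E2+(2R,6R)-HNK by 0.47 on the log2 scale (-0.47, SE 0.04, edgeR adjusted p = 1.29e-13), and -0.19 after correction. On the deposited counts ESRRA was higher (0.24), and NCOA2 (-0.23), PGRMC1 (-0.22), PGRMC2 (-0.14) and NCOA3 (-0.12) were lower. After correction these 5 were between -0.09 and 0.05. The NCOA3 call was also lost without replicate 1 of E2+(2R,6R)-HNK or replicate 2 of E2+(2S,6S)-HNK. NCOA1 differed by -0.03 (95% interval -0.16 to 0.10).

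**Figure D4:**
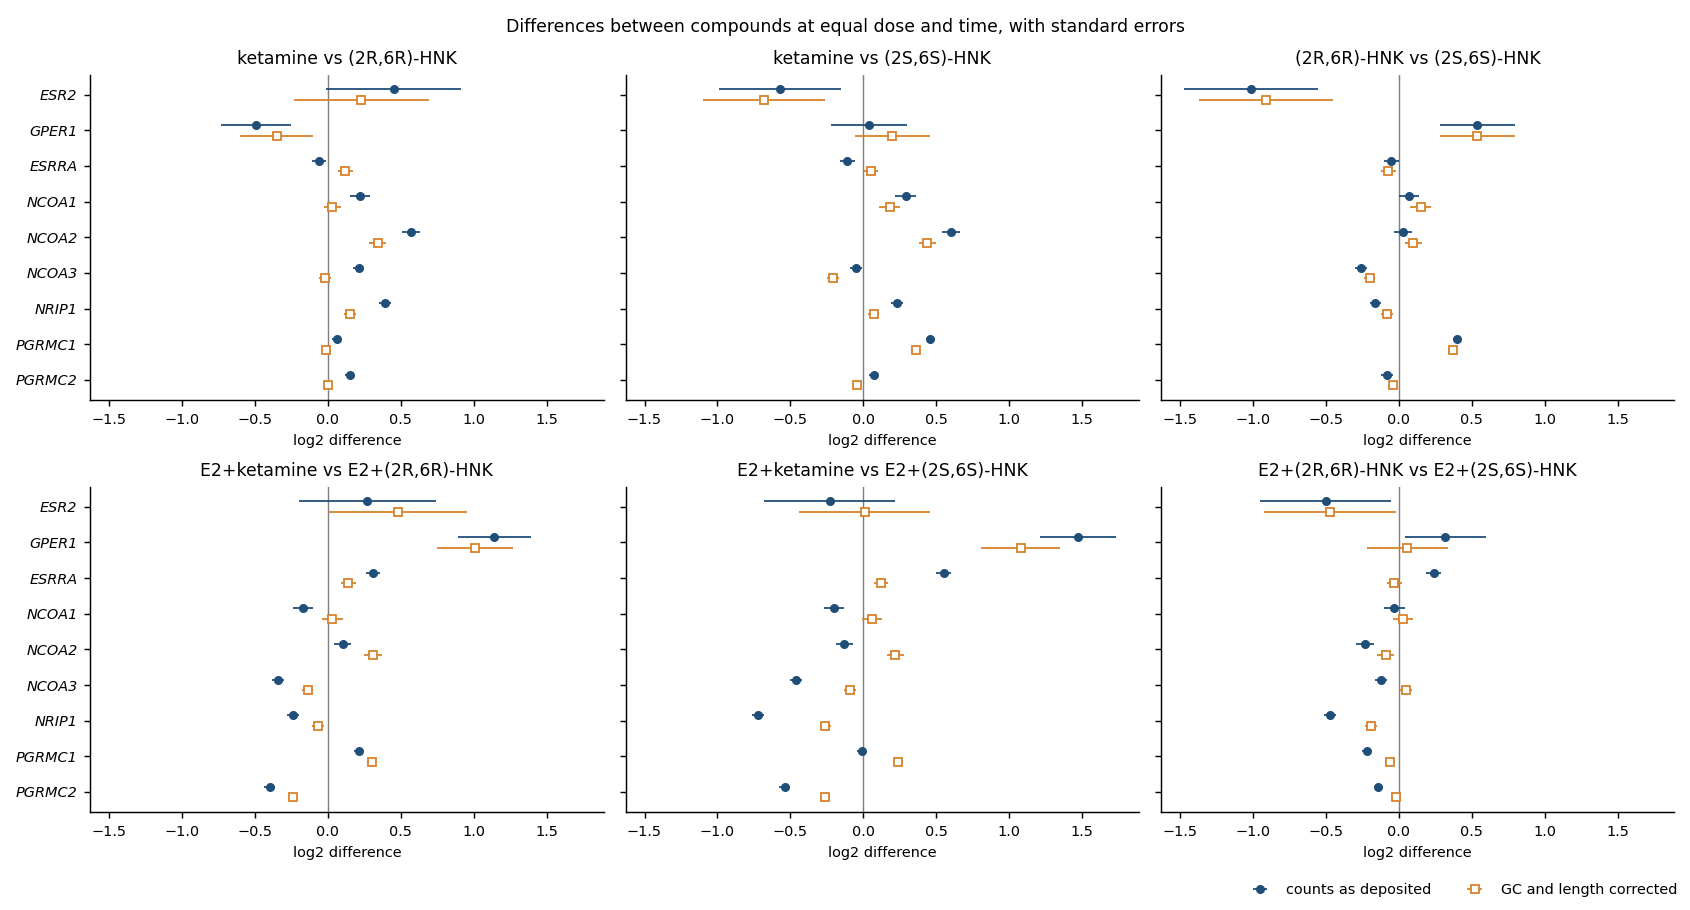
Log2 difference between compounds at 400 nM and 24 h (horizontal axis) for the 9 tested genes (vertical axis), without E2 in the upper panels and with E2 in the lower ones, from the deposited counts (filled) and after correction (open); bars are standard errors. GPER1 lies at 1.14 and 1.47 where E2+ketamine is compared with the E2+HNK groups, and PGRMC1 at 0.40 where (2R,6R)-HNK is compared with (2S,6S)-HNK.

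E2 was given together with each drug, and the combination was compared with the drug alone. Each drug was tested separately, and the effect of E2 was not compared between drugs. Over the 3 drugs, 18 of 27 tests of a member were called, against 52.2% of all tests, and 8 of 27 after correction, against 39.8%.

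For E2+ketamine against ketamine, 8 of 9 members were called, against 57.5% of all genes, and 3 of 9 after correction, against 40.7%. The 3 that held were NRIP1 (-0.54, SE 0.04, edgeR adjusted p = 1.94e-15, corrected -0.17), NCOA2 (-0.50, corrected -0.16) and PGRMC2 (-0.46, corrected -0.21). GPER1 was higher by 0.82 (SE 0.24, edgeR adjusted p = 0.00275) and by 0.51 after correction (edgeR adjusted p = 0.0899). ESRRA was higher by 0.34, and NCOA1 (-0.38), NCOA3 (-0.29) and PGRMC1 (-0.22) were lower, and these 4 were -0.03, -0.10, 0.05 and -0.03 after correction.

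For E2+(2R,6R)-HNK against (2R,6R)-HNK, 4 of 9 members were called, against 47.9% of all genes, and 3 of 9 after correction, against 48.9%. PGRMC1 was lower (-0.36, SE 0.03, edgeR adjusted p = 9.01e-13, corrected -0.33), and GPER1 was lower (-0.81, SE 0.26, edgeR adjusted p = 0.00675, corrected -0.86). The GPER1 value without replicate 2 of (2R,6R)-HNK was -0.68 (edgeR adjusted p = 0.0746). NCOA3 was higher (0.26, corrected 0.18). PGRMC2 was higher by 0.09, which was 0.04 after correction and was lost without either (2R,6R)-HNK library, without E2+(2R,6R)-HNK replicate 2, and in DESeq2 (adjusted p = 0.0621). The intervals of NCOA1 (-0.12 to 0.15), NCOA2 (-0.16 to 0.08) and ESRRA (-0.13 to 0.07) held 0. That of NRIP1 did not (0.10, 95% interval 0.01 to 0.19, edgeR adjusted p = 0.0599), and NRIP1 was called with a filter of 10 counts in every library (edgeR adjusted p = 0.0434).

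For E2+(2S,6S)-HNK against (2S,6S)-HNK, 6 of 9 members were called, against 51.3% of all genes, and 2 of 9 after correction, against 29.9%. NRIP1 was higher (0.41, SE 0.04, edgeR adjusted p = 1.46e-11, corrected 0.16) and so was PGRMC1 (0.26, SE 0.04, edgeR adjusted p = 1.71e-08, corrected 0.09). NCOA2 (0.22), PGRMC2 (0.15) and NCOA3 (0.11) were higher and ESRRA (-0.32) lower on the deposited counts, and were 0.05, 0.01, -0.07 and -0.10 after correction. The NCOA3 call was lost without replicate 2 of either group, and in DESeq2 (adjusted p = 0.0617). GPER1 was -0.60 (95% interval -1.16 to -0.03, edgeR adjusted p = 0.0707), -0.88 without replicate 2 of (2S,6S)-HNK (edgeR adjusted p = 0.0242) and -0.37 after correction (edgeR adjusted p = 0.365).

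An interaction term tested whether the effect of a drug differed with and without E2. The effect of a drug with E2 was taken against E2 alone, and its effect without E2 against vehicle, so the 3 terms share the E2 and vehicle libraries. NRIP1 had a called term above 0 for all 3 drugs, before and after correction. Over the 3 terms, 17 of 27 tests of a member were called, against 53.1% of all tests, and 8 of 27 after correction, against 39.8%.

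For ketamine, 2 of 9 members had an interaction, against 37.5% of all genes, and the same number after correction, against 36%. These were NRIP1 (0.31, SE 0.06, edgeR adjusted p = 3.39e-05, corrected 0.17) and PGRMC2 (-0.26, SE 0.05, edgeR adjusted p = 2.54e-05, corrected -0.24). For the other 7 the estimates were between -0.24 and 0.28, with the interval of ESRRA at -0.22 to 0.07, of NCOA1 at -0.13 to 0.25 and of PGRMC1 at -0.03 to 0.17.

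For (2R,6R)-HNK, 7 of 9 members had an interaction, against 56.6% of all genes, and 4 of 9 after correction, against 43.5%. NRIP1 had 0.95 (SE 0.06, edgeR adjusted p = 7.25e-19, corrected 0.39), NCOA3 0.65 (corrected 0.21) and GPER1 -1.36 (SE 0.36, edgeR adjusted p = 0.00109, corrected -0.99), and these were called both ways. NCOA1 (0.45), NCOA2 (0.40), PGRMC2 (0.29) and ESRRA (-0.44) were 0.16, -0.02, 0.00 and 0.01 after correction. PGRMC1 did the reverse, from -0.08 (95% interval -0.17 to 0.02) to -0.34 (edgeR adjusted p = 9.54e-10). It was called by DESeq2 (adjusted p = 0.0327) and with upper-quartile normalization (edgeR adjusted p = 0.0138) as well.

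For (2S,6S)-HNK, 8 of 9 members had an interaction, against 65.1% of all genes, but 2 of 9 after correction, against 39.8%. NRIP1 had 1.26 (SE 0.06, edgeR adjusted p = 4.7e-24, corrected 0.50), and NCOA1 0.55 (corrected 0.27). The other 6 did not stay past the threshold after correction: NCOA2 went from 0.66 to 0.16, PGRMC1 from 0.54 to 0.09, NCOA3 from 0.51 to -0.04 and PGRMC2 from 0.35 to -0.02. ESRRA went from -0.73 to -0.04, and GPER1 from -1.14 to -0.51. Without replicate 1 of (2S,6S)-HNK the GPER1 term was -0.81 (edgeR adjusted p = 0.0976).

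**Figure D5:**
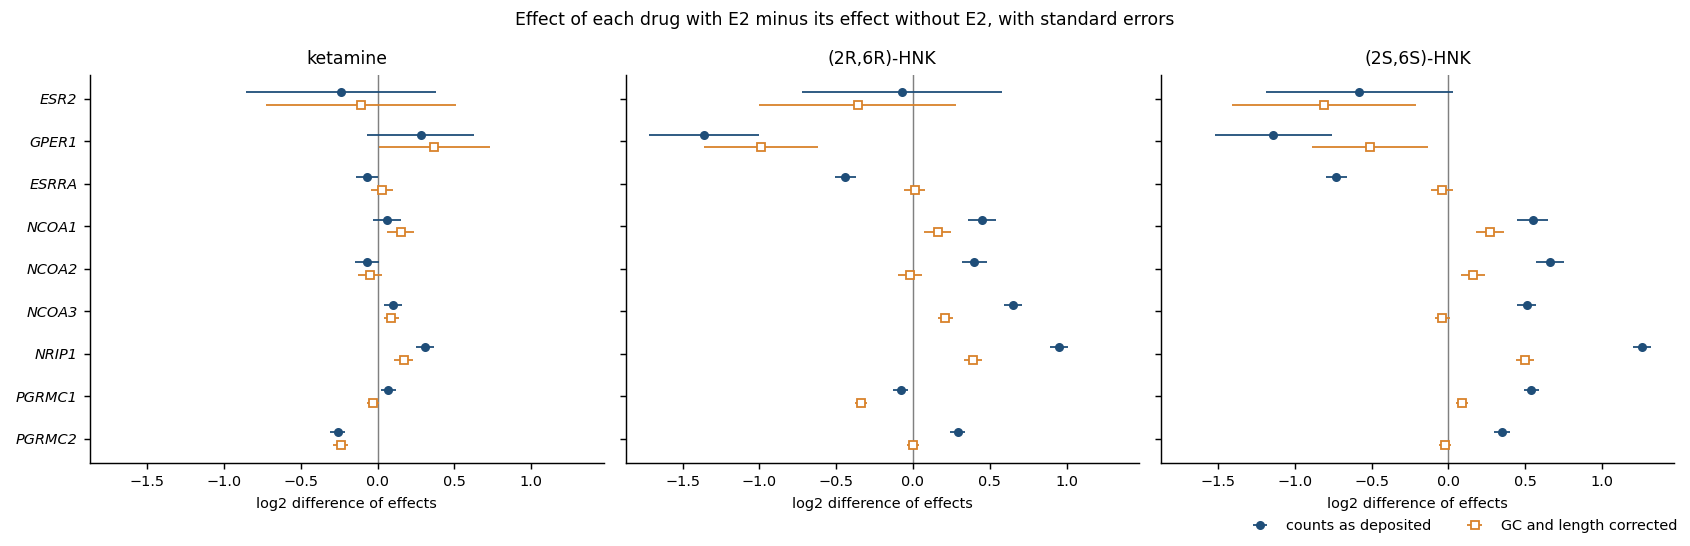
Effect of each drug with E2 minus its effect without E2 (horizontal axis, log2) for the 9 tested genes (vertical axis), from the deposited counts (filled) and after correction for G+C content and length (open); bars are standard errors. NRIP1 is right of 0 in all 3 panels (0.31, 0.95 and 1.26, and 0.17, 0.39 and 0.50 after correction). GPER1 is left of 0 for both metabolites (-1.36 and -1.14, and -0.99 and -0.51 after correction, the last not called).

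Other genes of the same pathways were described from lists. No test of a list as a whole was made, and the counts of called genes below stand beside 24% to 34.3% of all genes called higher and 32.5% to 37.4% called lower in the 7 comparisons with vehicle. After correction 37.5% to 59% of all genes were called in either direction. Chaperones hold steroid receptors in a form that can bind ligand. Of 11 chaperone genes tested, 8 were lower with E2, 10 with ketamine, 8 with (2R,6R)-HNK, 10 with (2S,6S)-HNK, 8 with E2+ketamine, 9 with E2+(2R,6R)-HNK and 10 with E2+(2S,6S)-HNK, while 1 or 2 were higher in each. The list medians were between -0.61 and -0.28, beside medians of all genes between -0.06 and -0.00, and 7 to 11 of the 11 were lower and 0 or 1 higher after correction. HSP90AA1, the inducible HSP90, was at -1.51 with E2+ketamine (SE 0.02, edgeR adjusted p = 7.75e-45, corrected -1.14), and HSPA8, the constitutive HSP70, at -1.02 with E2+(2R,6R)-HNK (corrected -0.90). The cochaperones PPID and FKBP5 were at -0.89 and -0.88 with E2+ketamine, and at -0.36 and -0.24 after correction.

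A further list held genes known from other cells as estrogen targets. Of 25 on the list 21 were tested, and with E2 alone 7 were higher and 2 lower (29.9% and 32.7% of all genes), or 3 and 3 after correction. With ketamine 9 were higher and 2 lower, with (2R,6R)-HNK 9 and 4, and with (2S,6S)-HNK 8 and 5. With E2+ketamine 11 were higher and 3 lower, with E2+(2R,6R)-HNK 9 and 4, and with E2+(2S,6S)-HNK 5 and 4. After correction 3 to 8 were higher and 3 to 7 lower. The list medians were 0.06 with E2, 0.25 with ketamine, 0.33 with (2R,6R)-HNK, 0.14 with (2S,6S)-HNK, 0.47 with E2+ketamine, 0.19 with E2+(2R,6R)-HNK and 0.04 with E2+(2S,6S)-HNK, and 0.03 to 0.30 after correction. TFF1, a classical target in breast cells, was at 0 in all 16 libraries, and PGR, the progesterone receptor, had 2 counts in 1 library. GREB1, another classical target with a mean of 1.65 CPM, was at 0.01 with E2 (SE 0.24, edgeR adjusted p = 0.969). With ketamine GREB1 was at 0.86 (SE 0.22, edgeR adjusted p = 0.000593, corrected 0.69). It was also called higher with (2S,6S)-HNK (0.60), E2+ketamine (0.61), E2+(2R,6R)-HNK (0.66) and E2+(2S,6S)-HNK (0.54), but not with (2R,6R)-HNK (0.39). After correction only its ketamine value was called. IGFBP4 was at 1.09 with E2+ketamine (corrected 0.37), CCND1 (cyclin D1) at -1.01 with (2S,6S)-HNK (corrected -1.09), and PDZK1 at -1.23 with E2+(2R,6R)-HNK (corrected -0.92).

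For other coactivators and corepressors the correction changed the counts. Among 19 coactivator genes, 2 to 8 were called higher and 6 to 11 lower in the 7 comparisons, with medians of -0.19 to 0.05, and after correction 2 to 4 were higher and 9 to 13 lower, with medians of -0.26 to -0.05. MED1, a Mediator subunit that binds nuclear receptors, was at -1.04 and TRIM24 at -0.95 with E2+ketamine, and these were -0.58 and -0.34 after correction. NCOA4 was at -0.76 with E2+(2R,6R)-HNK (corrected -0.43) and SRA1 at 0.64 with E2+ketamine (corrected 0.31). Of 13 corepressor genes tested, 3 to 6 were higher and 6 or 7 lower, with medians of -0.23 to 0.12, and after correction 0 to 4 were higher and 6 to 9 lower, with medians of -0.36 to -0.06. TBL1XR1, a subunit of the NCOR complexes, was at -1.11 with E2+(2R,6R)-HNK (corrected -0.46), and LCOR, a ligand-dependent corepressor, at -1.03 with (2R,6R)-HNK (corrected -0.36). SAFB was at -0.82 with (2S,6S)-HNK and at -1.14 after correction, whereas MTA1, of the NuRD complex, was at 0.99 with E2+(2R,6R)-HNK (corrected 0.45).

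Among 20 other nuclear receptor genes tested, 4 to 11 were higher and 2 to 8 lower, with medians of -0.17 to 0.21, and after correction 3 to 6 were higher and 3 to 10 lower, with medians of -0.16 to 0.01. PPARA, a receptor for fatty acids, was at 1.16 with E2+(2R,6R)-HNK (SE 0.06, edgeR adjusted p = 8.12e-23, corrected 1.23). NR3C1, the glucocorticoid receptor, was at -1.07 with E2+ketamine (corrected -0.43). The oxysterol receptors NR1H2 and NR1H3 were at 1.01 with E2+ketamine (corrected 0.39) and 0.99 with (2S,6S)-HNK (corrected 0.64). Of 7 genes for other membrane steroid receptors and relatives of PGRMC1, 2 to 4 were higher and 0 lower in each comparison, with medians of 0.10 to 0.30. In this list PAQR8, a membrane progestin receptor, was at 1.22 with E2+(2R,6R)-HNK (corrected 1.42), PAQR7 at 0.56 in the same group (corrected 0.25), PAQR5 at 0.49 with E2+(2S,6S)-HNK (corrected 0.66) and NENF at 0.50 with E2+ketamine (corrected -0.02, not called). After correction 2 to 4 of the 7 were called higher and 0 to 2 lower.

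The last list held targets of ESRRA in energy metabolism. Of 8 tested, 5 were higher and 3 lower with E2, 3 and 4 with ketamine, 4 and 3 with (2R,6R)-HNK, and 2 and 4 with (2S,6S)-HNK. With E2+ketamine it was 4 and 3, with E2+(2R,6R)-HNK 2 and 4, and with E2+(2S,6S)-HNK 1 and 4. After correction the counts were 4 and 3 with E2, 0 and 5 with ketamine, 3 and 2 with (2R,6R)-HNK and 2 and 5 with (2S,6S)-HNK. With E2 added they were 2 and 2 for ketamine, 2 and 5 for (2R,6R)-HNK and 0 and 5 for (2S,6S)-HNK. With E2+(2R,6R)-HNK, cytochrome c (CYCS) was at -1.05 (corrected -0.64), ACADM at -0.90 (corrected -0.27), and IDH3A was lower too (edgeR adjusted p = 1.75e-23, corrected -0.65).

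Likeness to other genes was described by Pearson's correlation of log2 CPM over the 8 condition means, among 10373 or 10374 tested genes with a mean of at least 5 CPM. These conditions share libraries, depth and the dependence on base composition, and the highest of so many correlations is high by selection. NRIP1 was most like ARHGAP5 (0.999) and TAOK1 (0.998), and ESRRA most like MAFF (0.995) and THRA (0.992). GPER1 was most like EMC10 and RAB35 (0.994 each), NCOA1 like SCAF8 (0.993) and NUP153 (0.992), NCOA2 like DPY19L1 (0.992) and BNC1 (0.991), and NCOA3 like MTR (0.994) and CEP170 (0.991). PGRMC1 was most like PANX1 and B3GALNT1 (0.986 each), and PGRMC2 like ZYG11B (0.985) and ZNF532 (0.983). For ESR2 the highest values were 0.815 and 0.804, with WDYHV1 and ZNF530. The genes most like NRIP1 were also low in exon G+C, and the genes most like ESRRA high, and whether base composition sets this likeness was not tested.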

How the data were processed

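Total RNA from HMC3 cells in 8 groups of 2 was sequenced as paired reads. The counts are raw counts per gene, deposited by the authors as 1 table and described as counts of read pairs. By the submitters' processing notes, reads were aligned with TopHat2 2.0.14 and Bowtie2 2.2.6 to hg19 and counted with featureCounts 1.4.6, on UCSC gene models. Whether counting used the strand is not stated. Of counts from 1 to 9, 65.8% were even, against 49.9% of large counts. Both mates of some pairs may thus have been counted, which would overstate the number of independent observations, and halved counts were tried for this reason.

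The software was edgeR 4.0.16 under R 4.3.3, with limma 3.58.1 loaded. Genes were tested in 1 fit of all 16 libraries with a mean for each group and 8 residual degrees of freedom. The filterByExpr filter left 16004 of 25370 genes, library sizes were scaled by TMM, and p-values were adjusted by the Benjamini-Hochberg method within each of 19 comparisons. CPM are counts per 1e6 of the scaled library size. Exon G+C content and length came from GENCODE models on GRCh37 (21525 genes were found under the table's symbol, 1503 under a synonym, and 95.9% of tested genes had a value), and entered as a loess offset for each library with a span of 0.5.

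Alternatives were DESeq2 1.42.0, upper-quartile normalization, other filters, a fit of only the groups compared, a replicate block, this correction with and without the block, halved counts, and leaving out each library. The code was tested on simulated data. The members and lists were chosen with earlier results of these data known. Named from each pathway list were up to 4 genes with the largest absolute log2 fold change from vehicle among those whose mean reached 1 CPM and whose adjusted p was under 0.05, and GREB1, TFF1 and PGR whatever their values. From each marker list the most abundant gene and those at 0 were named, and for each tested member the 2 genes most like it.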

Additional observations from a re-analysis of the deposited data

Results flagged for a closer look

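In 17 of 27 tests (53.1% of all tests over all genes) a drug's effect on a member differed between cells with and without E2 by an edgeR interaction term, given here as log2 values. After correction for G+C content and length 8 of 27 were called (39.8% of all tests), 7 of these 17 and PGRMC1 with (2R,6R)-HNK. For ketamine the terms called were NRIP1 at 0.31 (0.17 corrected) and PGRMC2 at -0.26 (-0.24 corrected), both still called.

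For (2R,6R)-HNK they were GPER1 at -1.36 (-0.99 corrected), NRIP1 at 0.95 (0.39 corrected) and NCOA3 at 0.65 (0.21 corrected), which were still called. The calls of the others were lost: NCOA1 at 0.45 (0.16 corrected), ESRRA at -0.44 (0.01 corrected), NCOA2 at 0.40 (-0.02 corrected) and PGRMC2 at 0.29 (0.00 corrected).

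For (2S,6S)-HNK they were NRIP1 at 1.26 (0.50 corrected) and NCOA1 at 0.55 (0.27 corrected), which were still called. The calls of the others were lost: GPER1 at -1.14 (-0.51 corrected), ESRRA at -0.73 (-0.04 corrected), NCOA2 at 0.66 (0.16 corrected), PGRMC1 at 0.54 (0.09 corrected), NCOA3 at 0.51 (-0.04 corrected) and PGRMC2 at 0.35 (-0.02 corrected). The causes of these differences were not tested.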

How the results depend on the processing

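Less could be said of ESR1, ESR2 and GPER1, which had 0 to 107 counts per library. Whether depth or the spread between libraries set this limit was not tested. For the other 7 members the choice that mattered most was the correction for exon G+C content and length. The number of members called against vehicle was 48 to 50 of 63 under the other settings and 34 with the correction, and between compounds 29 to 34 of 54 and 22. For E2 added to a drug it was 16 to 19 of 27 (18 in the fit reported) and for the interactions 17 or 18 of 27 (17), and each was 8 with the correction, with or without the block. The cause was not tested. Calls of list genes against vehicle, summed over the 7 comparisons, numbered 493, 449 with the correction and 485 in DESeq2. Leaving out each library in turn gave 48 to 50, 29 to 33, 16 to 18 and 16 to 18 calls in the 4 sets of comparisons. A library left as the only one of its group was assumed to vary like the others. Member values past the threshold that missed it in such a refit numbered 25, and those that newly passed numbered 11, while 2700 kept their side.

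A replicate block gave the same counts (50, 31, 18, 17 and 493) and changed the call of no member. Over all tested genes, same-numbered libraries did not deviate together, with correlations of -0.0258 to 0.0451 over the 28 pairs of groups. A pairing that shows in part of the genes could leave such low values. They therefore do not settle whether the numbers pair the libraries.

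With the correction, 32 called values changed sign or a value came out with the opposite sign and called. Against vehicle these were ESRRA with E2 (-0.07), ketamine (-0.07), (2R,6R)-HNK (-0.19), (2S,6S)-HNK (-0.12, or -0.11 with the block), E2+ketamine (-0.10), E2+(2R,6R)-HNK (-0.24) and E2+(2S,6S)-HNK (-0.22). PGRMC2 was 0.03 with E2, 0.06 with ketamine, 0.06 with (2R,6R)-HNK, 0.10 with (2S,6S)-HNK and 0.10 with E2+(2R,6R)-HNK. NCOA3 was 0.08 with (2S,6S)-HNK, 0.06 with E2+(2R,6R)-HNK and 0.01 with E2+(2S,6S)-HNK, NCOA2 was 0.01 with ketamine and PGRMC1 0.00 with E2. Between compounds they were ESRRA 0.12 and NCOA3 -0.02 (ketamine less (2R,6R)-HNK), NCOA1 0.03 (E2+ketamine less E2+(2R,6R)-HNK), NCOA1 0.06, NCOA2 0.22 and PGRMC1 0.24 (E2+ketamine less E2+(2S,6S)-HNK), and ESRRA -0.03 and NCOA3 0.05 (E2+(2R,6R)-HNK less E2+(2S,6S)-HNK). With E2 added they were ESRRA -0.03 and NCOA3 0.05 (ketamine) and NCOA3 -0.07 ((2S,6S)-HNK), and among interactions ESRRA 0.01 and NCOA2 -0.02 ((2R,6R)-HNK), and NCOA3 -0.04 and PGRMC2 -0.02 ((2S,6S)-HNK). Apart from the value noted, the block together with the correction gave the same 32. With upper-quartile normalization PGRMC2 in ketamine changed sign (0.00). Another 29 member values missed the threshold with the correction and 5 newly passed it. The causes were not tested.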
